A study of Mus musculus with 2 samples.

Results

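The GIMAP genes (GTPases of immunity-associated proteins) were read in activated mouse CD8+ T cells cultured with bezafibrate or with its solvent, dimethyl sulfoxide (DMSO). The members were the probe sets whose only annotated gene symbol begins with Gimap, which gave 9 probe sets of 8 genes, Gimap1 and Gimap3 to Gimap9, among 33793 probe sets and 22180 genes with a value. Naive CD8+ T cells had been activated with beads carrying antibodies to CD3 and CD28, in recombinant human interleukin-2 at 100 U/mL. The bezafibrate group received 30 µM bezafibrate, a fibrate drug and an agonist of PPARs (peroxisome proliferator-activated receptors, which control genes of fatty acid use), for the whole culture, and the DMSO group received the solvent alone; expansion ran to day 13. Each group was measured on 1 Affymetrix array of bulk RNA, and the labels give neither the number of mice nor the number of cultures behind it. The differences below therefore set 1 array against 1 array, with no replicate spread and no p-value. In bulk RNA, fewer cells of a type and less RNA per cell cannot be told apart.

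GIMAP proteins bind GTP through a conserved AIG1-type domain, and several are anchored in internal membranes by a hydrophobic tail. They are found mainly in lymphocytes, where loss of some members shortens the life of mature T cells. Rats and mice without GIMAP5 lose peripheral T cells. The genes lie side by side on mouse chromosome 6, and all 8 matched the RefSeq gene table of GRCm38.p6 in the order Gimap8, Gimap9, Gimap4, Gimap6, Gimap7, Gimap1, Gimap5 and Gimap3, with 0 other protein-coding genes between them. Gimap6 and Gimap3 are on the minus strand and the other 6 on the plus strand.

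The RefSeq promoter table of GRCm38.p6 held 9 entries for the 8 genes, with 2 start sites for Gimap8. The 250 bases before the start are printed 5′ to 3′ for 4 of them. Gimap8 is shown because it had the highest ratio of bezafibrate over DMSO, Gimap5 because it had the lowest, Gimap4 because its signals on the arrays were almost equal, and Gimap3 because it is the close relative of Gimap5 on the opposite strand. Capitals mark matches on either strand to TGTGGT (the core motif of RUNX factors), GTAAACA (FOXO factors) or GGGTG (KLF factors), and these matches did not overlap each other in the Gimap promoters. For Gimap8 the upstream start site is used.
Gimap8 promoter, chr6:48646984-48647233, plus strand: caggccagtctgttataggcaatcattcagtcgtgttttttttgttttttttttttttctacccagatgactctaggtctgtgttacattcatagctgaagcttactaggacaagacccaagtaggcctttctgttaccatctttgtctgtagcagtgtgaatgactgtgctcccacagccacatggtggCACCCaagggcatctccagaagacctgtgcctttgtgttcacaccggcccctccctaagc
Gimap5 promoter, chr6:48745947-48746196, plus strand: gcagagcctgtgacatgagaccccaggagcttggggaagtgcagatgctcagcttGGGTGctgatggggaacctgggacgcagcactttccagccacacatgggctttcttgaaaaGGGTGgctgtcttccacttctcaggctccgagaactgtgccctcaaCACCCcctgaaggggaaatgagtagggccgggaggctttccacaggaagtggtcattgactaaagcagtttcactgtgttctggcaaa
Gimap4 promoter, chr6:48684328-48684577, plus strand: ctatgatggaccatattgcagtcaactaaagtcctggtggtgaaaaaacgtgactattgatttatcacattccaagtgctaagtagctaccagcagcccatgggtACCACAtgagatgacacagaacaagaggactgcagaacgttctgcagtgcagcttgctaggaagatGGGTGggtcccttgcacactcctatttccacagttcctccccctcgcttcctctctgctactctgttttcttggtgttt
Gimap3 promoter, chr6:48770852-48771101, minus strand: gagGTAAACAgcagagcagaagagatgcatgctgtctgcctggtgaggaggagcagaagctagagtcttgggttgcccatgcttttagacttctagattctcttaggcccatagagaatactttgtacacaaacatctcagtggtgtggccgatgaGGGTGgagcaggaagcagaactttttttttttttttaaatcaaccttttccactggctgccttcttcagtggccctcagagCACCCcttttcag

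The printed sequences show KLF letters in all 4 promoters, 1 match in Gimap8, 3 in Gimap5, 1 in Gimap4 and 2 in Gimap3. The 2 Gimap8 windows overlap by 123 bases and share a match, so the family is counted by gene. Over the whole family, 5 of 8 genes (6 of 9 windows) had GGGTG, against 52.0% of the 32851 promoters of the table. The shares over all promoters count entries and not genes, so the counts by window are given too. RUNX letters were in Gimap1, Gimap4 and Gimap7, 3 of 8 genes (3 of 9 windows) against 14.0% of all promoters. FOXO letters were only in the Gimap3 promoter, 1 of 8 genes (1 of 9 windows) against 3.2% of all promoters. The PPAR response element AGGTCANAGGTCA, where N is any base, was in 0 of the 9 windows and in 0.033% of all promoters. A match of letters does not show binding, and the lack of one says only that these letters are not in this window. The family's windows had a median GC content of 47.6% and a median of 3 CpG sites, against 52.4% and 6 over all promoters.

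All 8 genes gave signal on both arrays, and the arrays differed little for any of them. Of the 8 genes, 0 were at least 1.5-fold higher with bezafibrate, where 0.664% of the 11448 genes above the floor were, and 0 were at least 1.5-fold lower, where 0.524% were. The floor was the median signal of all named genes, 4.85 on the bezafibrate array and 4.88 on the DMSO array on the log2 scale, and a gene passed it by exceeding the median of its own array on the brighter of the arrays. All 8 genes were above it. Because so small a share of genes passed the 1.5-fold limits, a count of 0 in a family of 8 is near the background. That count alone does not set the GIMAP genes apart from other genes. The median log2 ratio of bezafibrate over DMSO was −0.01 for the family and 0.00 for all genes above the floor. By sign alone 2 of the 8 were higher (48.4% of all genes above the floor were) and 5 were lower (49.6% of all), with Gimap7 equal, and this split became 5 higher and 3 lower after centring on housekeeping genes. The family's own ratios ran from −0.19 to 0.28, with an SD across the 8 genes of 0.16, and 95% of genes above the floor lay between −0.42 and 0.41.

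**Figure D1:**
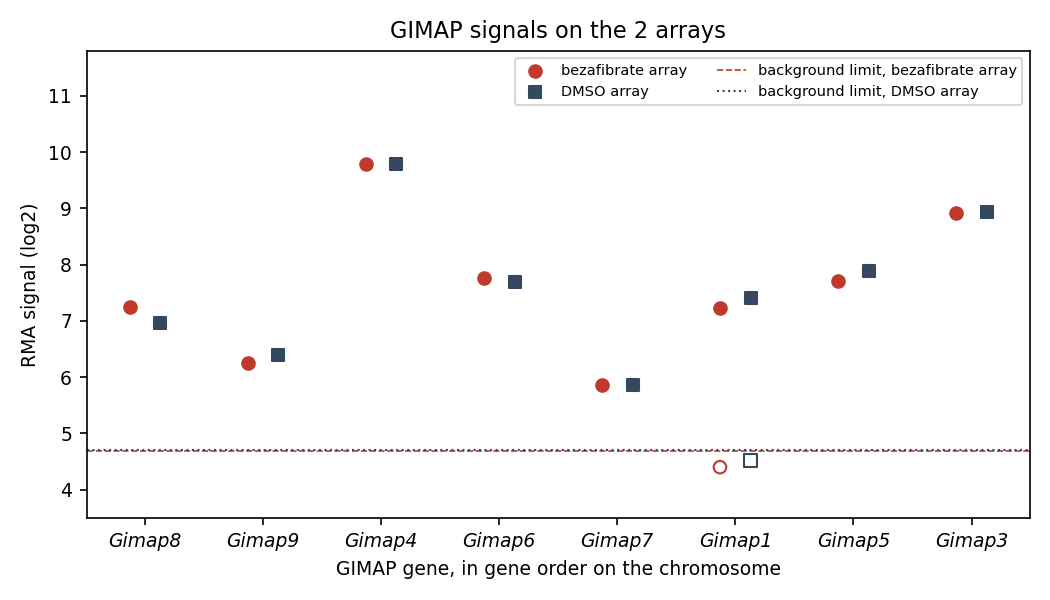
RMA signal (log2) of each GIMAP gene on the bezafibrate array (red circles) and on the DMSO array (dark squares), in gene order; open symbols are the dimmer probe set of Gimap1 and the lines are the background limits of 4.68 and 4.71. For every gene the symbols of both arrays lie close together, and the 8 probe sets that stand for the genes lie above the limits.

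The background limit was set with 1390 receptor genes of smell and pheromone sensing (olfactory and vomeronasal), taken to be silent in T cells. Their 95th percentile was 4.68 on the bezafibrate array and 4.71 on the DMSO array. The GIMAP signals exceeded it by between 1.19 (Gimap7) and 5.10 (Gimap4) log2 units on the bezafibrate array, and by between 1.16 and 5.08 for the same genes on the DMSO array. Because probes differ in affinity, these distances say that each gene was detected and do not rank the transcripts by abundance.

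Gimap5, whose protein sits on lysosomal membranes and is needed for the survival of peripheral T cells, had the lowest ratio. Its log2 signal (probe set 17458385) was 7.70 on the bezafibrate array and 7.89 on the DMSO array, a log2 ratio of −0.19 or 1.14-fold lower with bezafibrate. A ratio of that size or larger in either direction was found in 34.7% of genes above the floor. Gimap3 (17466618), its closest relative in the mouse, which influences the inheritance of mitochondrial DNA in blood cells of mice, had 8.91 on the bezafibrate array and 8.93 on the DMSO array, a ratio of −0.02. How far their probe sets also detect each other's transcripts was not tested.

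Gimap1, a protein of the Golgi and endoplasmic reticulum without which mature T and B cells are lost in mice, was the only member with 2 probe sets. The brighter (17458379) had 7.22 with bezafibrate and 7.40 with DMSO, a ratio of −0.18 or 1.13-fold lower. The dimmer (17458377) had 4.40 with bezafibrate and 4.52 with DMSO, a ratio of −0.12, and was within background on both arrays. Both probe sets had the same sign, but the dimmer one carries little information. In 441 genes with at least 2 probe sets above the floor, the ratios of the 2 brightest differed by a median of 0.20 log2 units and by at least 0.28, the largest GIMAP ratio, in 37.0%. All GIMAP ratios except that of Gimap8 were smaller in size than that median difference.

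Gimap8, which carries several GTP-binding domains in a single protein, had the highest ratio. Its probe set (17458345) had 7.24 with bezafibrate and 6.96 with DMSO, a log2 ratio of 0.28 or 1.21-fold higher. All other GIMAP ratios lay between −0.19 and 0.07, and 18.0% of genes above the floor had a ratio of at least that size in either direction. At a lower limit of 0.32 log2 units the count was still 0 of 8 members in either direction, where 5.83% of genes above the floor were higher and 6.32% lower. Gimap9 (17458355), next to Gimap8 on the same strand, read the other way, with 6.25 with bezafibrate and 6.40 with DMSO, a ratio of −0.15. Gimap8 and Gimap9 thus did not share a sign.

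Gimap4, which in mice speeds the death of T cells once apoptosis has been triggered, was almost equal on the arrays. Its probe set (17458362) had 9.78 with bezafibrate and 9.79 with DMSO, and the ratio to 4 decimals was −0.0044. Gimap6, which binds the autophagy protein GABARAPL2 and whose loss shortens T cell survival in mice, had 7.76 with bezafibrate and 7.69 with DMSO (17466606), a ratio of 0.07. Gimap7, whose human protein, when purified, forms GTP-dependent dimers and stimulates GTP hydrolysis by its relative GIMAP2, had 5.86 on both arrays (17458372). The 2 deposited values of Gimap7 were identical in all their decimals, as for 223 of the 11448 genes above the floor (1.95%). The sources used here do not say how such equal values arose.

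**Figure D2:**
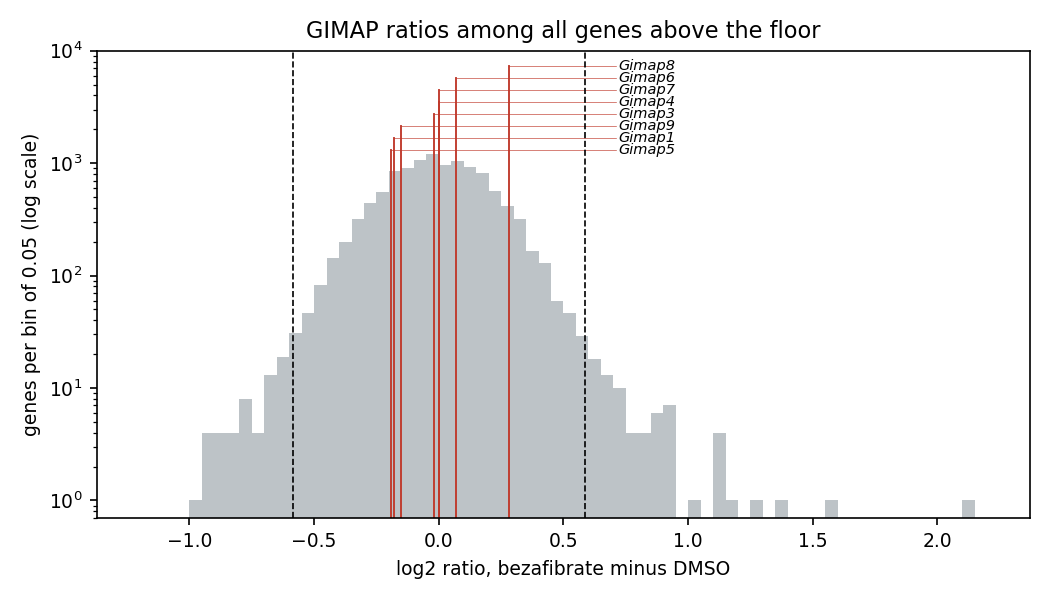
Histogram of the log2 ratio, bezafibrate minus DMSO, of the 11448 genes above the floor, in bins of 0.05 on a log count axis, with the 8 GIMAP genes as red lines and the 1.5-fold limits dashed. The GIMAP lines run from −0.19 to 0.28, within the central bulk of the histogram.

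With the probe sets, scaling or centring changed, 5 of the 8 genes had 1 sign throughout. Those of the 7 alternatives that changed only the choice of probe set could move no member but Gimap1. The other members had 1 probe set each, so for them only scaling and centring were varied. Across the 7 alternatives Gimap8 ran from 0.26 to 0.33 and Gimap6 from 0.04 to 0.14. Gimap5 ran from −0.22 to −0.13, Gimap1 from −0.20 to −0.06 and Gimap9 from −0.16 to −0.07. Gimap3 ran from −0.03 to 0.05 and Gimap4 from 0.00 to 0.06, changing sign with the scaling or centring, so no direction is given for them.

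The genes next to the cluster were read in the same way, taking 5 protein-coding genes on each side. Of these 10, 8 had a probe set of their own, and 5 of the 8 were above background. All 5 read lower with bezafibrate, where 49.6% of all genes above the floor did, and their median log2 ratio was −0.12. At least 1.5-fold lower were 0 of them, against 0.524% of genes above the floor. Of the neighbours within background, Aoc1 (0.06) and Doxl1 (0.20) read higher and Gm5111 (−0.27) lower. Zfp775, a zinc finger gene beside Gimap8, had 5.21 with bezafibrate and 5.48 with DMSO, a ratio of −0.27, and Repin1, a zinc finger gene one step further, had a ratio of −0.02. Tmem176b, which encodes a membrane-spanning ion channel of immune cells and lies beside Gimap3, had the lowest ratio at the locus, with 5.31 with bezafibrate and 5.85 with DMSO, a ratio of −0.54. Its partner gene Tmem176a had 5.91 with bezafibrate and 5.97 with DMSO, a ratio of −0.06. Gimap3, on the other side of Tmem176b, had −0.02, so the ratio of Tmem176b was not shared by the member beside it.

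**Figure D3:**
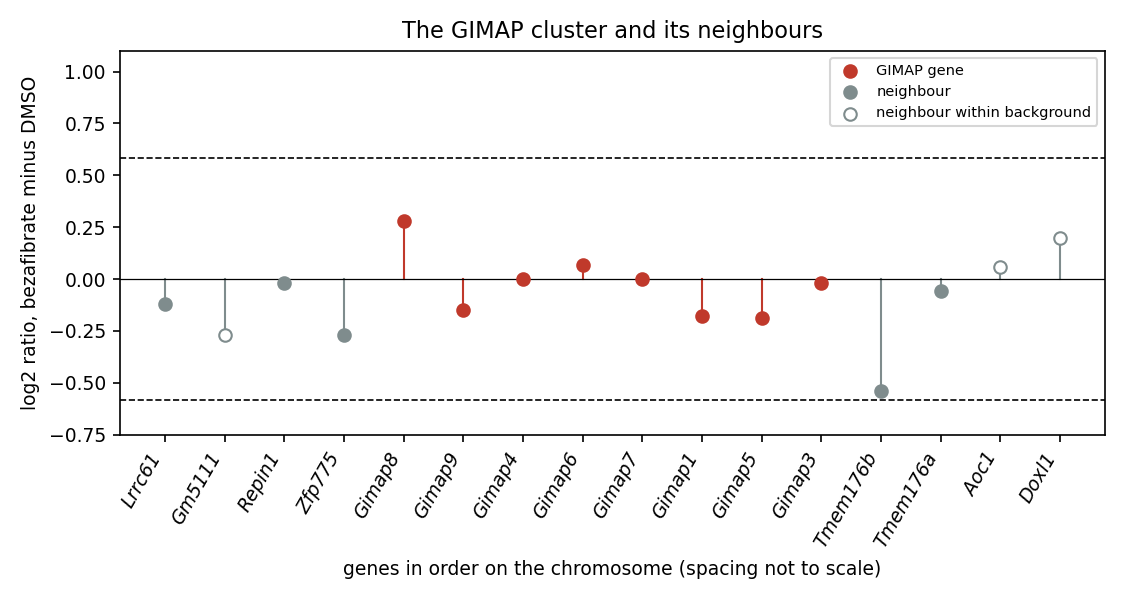
Log2 ratio, bezafibrate minus DMSO, of the 8 GIMAP genes (red) and their 8 measured protein-coding neighbours (grey, open where both arrays were within background), in gene order without scale; the dashed lines are 1.5-fold. Tmem176b at −0.54 is the lowest point, and all GIMAP points lie between −0.19 and 0.28.

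For context, 8 lists of other genes were read with the brightest probe set of each gene: partners of GIMAP proteins, survival genes, quiescence and activation genes, and other GTPases. Counts by sign over the measured genes of a list include genes below the floor. For comparison, 48.4% of all genes above the floor read higher and 49.6% lower. Each list had 0 members past 1.5-fold in either direction, where 2.53% of all named genes and 1.19% of those above the floor were. In lists of 4 to 15 genes a count of 0 is therefore near the background. The 5 genes of the ATG8 family, small proteins coupled to autophagosome membranes that include the binding partner of GIMAP6, were all lower by sign, with a median of −0.22. Gabarapl2 itself had 6.90 with bezafibrate and 7.14 with DMSO, a ratio of −0.24, against 0.07 for Gimap6. Map1lc3a had the lowest ratio of that list, −0.28, and Gabarapl1 the highest, −0.17. Gabarap had −0.20 on its brighter probe set and −0.64 on another above background, which is past 1.5-fold, so the count of 0 for this list holds only for the brightest probe sets. Autophagy genes were already known to be mostly lower on these arrays, so their sign is not independent evidence.

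Survival genes of the BCL2 family, to which GIMAP3 and GIMAP5 have been linked, divided by sign. The 4 measured anti-apoptotic genes had 2 on each side of 0 and a median of 0.02. Bcl2, which blocks the mitochondrial route to apoptosis, had 11.34 with bezafibrate and 11.21 with DMSO, a ratio of 0.13, and −0.18 on a dimmer probe set. Bcl2l1, which encodes BCL-XL, had −0.09 and Mcl1, a short-lived inhibitor of apoptosis, −0.01, with −0.40 on another probe set of Mcl1. Among 10 measured pro-apoptotic genes, 7 read lower and 3 higher, and the median was −0.06. Of those above the floor, 6 read lower and 2 higher. Bcl2l11, which encodes BIM, had 0.29 at the upper end, and Bbc3, which encodes PUMA, −0.36 at the lower end. Gsk3b, a kinase that GIMAP5 restrains in T cells, had 9.17 with bezafibrate and 9.10 with DMSO, a ratio of 0.07. The other measured genes of that axis were lower by sign, from −0.07 for Ctnnb1 to −0.15 for Nfatc1.

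GIMAP genes are high in resting T cells, so genes of quiescent and naive T cells were set beside them. Of 15 measured, 6 were higher and 9 lower, with a median of −0.11. Of those above the floor, 5 were higher and 9 lower, with a median of −0.12. Klf2, a factor that keeps T cells quiescent, had 7.33 with bezafibrate and 7.62 with DMSO, a ratio of −0.30. Its target S1pr1 had −0.34 and Tob1, an antiproliferative gene, −0.44. At the upper end Btg1 had 0.22 and Foxp1 0.17. Foxo1, the factor upstream of Klf2 and Il7r, had 0.01 on its brighter and −0.30 on its dimmer probe set. Il7r, the receptor of the survival cytokine interleukin-7, was within background, with 2.62 on the bezafibrate array and 2.32 on the DMSO array. Il7r is 1 of the 6 higher genes counted above. Among 14 activation genes, 8 read lower and 6 higher around a median of −0.06, with Cd44 at 0.43 and, at the lower end, Batf at −0.35.

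Other GTPase families also had medians near 0. Of 5 measured immunity-related GTPases, a family with interferon-induced proteins that act against intracellular pathogens, 3 read lower and 2 higher. Their list median was −0.01. Irgc1, 1 of the 2 higher genes, was below the floor, and above it 3 read lower and 1 higher. Among those above the floor Iigp1 had the highest ratio at 0.25 and Irgm1 the lowest at −0.12. Of 12 measured septins, which are cytoskeletal GTPases of a related fold, 9 read lower and 3 higher, with a list median of −0.05. Of the septins above the floor, 7 read lower and 2 higher, where 49.6% of all genes above the floor read lower. Among those above the floor, Septin11 had 0.18 and Septin8 −0.31.

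**Figure D4:**
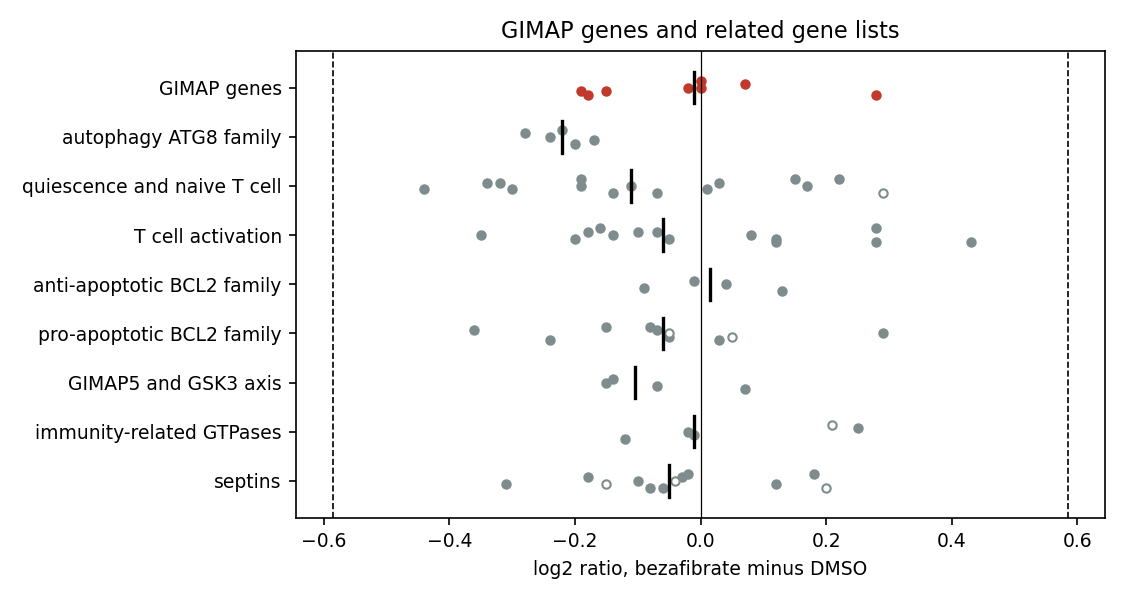
Log2 ratio, bezafibrate minus DMSO, of each measured gene (points, open where below the floor) in the GIMAP family and 8 related lists, with the list median as a black bar and the 1.5-fold limits dashed. The GIMAP median is −0.01, the ATG8 median is −0.22 with all 5 points below 0, and no point passes the limits.

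The cells carried the markers of their label. The CD8 T cell list holds Cd8a, Cd8b1 and genes that other T cells share. All 10 of its measured genes were above background on at least 1 array. Of these, 9 were lower by sign, where 49.6% of all genes above the floor were. The list median was −0.14. Cd3d had −0.30 and Cd8b1 −0.23, whereas Cd8a had −0.14. Set beside these, the GIMAP genes had a median of −0.01. Among markers of other cells that could supply GIMAP transcripts, 2 of 7 B cell genes, 2 of 4 CD4 T cell genes (Foxp3 and Zbtb7b), 2 of 4 natural killer cell genes (Fcer1g and Tyrobp) and 2 of 6 endothelial genes (Kdr and Eng) were above background on at least 1 array. Fcer1g, a signalling chain of Fc receptors, had 5.64 with bezafibrate and 6.57 with DMSO and was the only marker above background past 1.5-fold. For B cells these were Ighm, with 8.72 with bezafibrate and 9.05 with DMSO, and Cd79b, with 4.85 and 5.41 in the same order, while Ms4a1 and Pax5 were within background. Cd4 was within background on both arrays. The myeloid lists had 2 of 7 macrophage and monocyte genes (Cd68 and Csf1r), 0 of 6 neutrophil and 2 of 5 dendritic cell genes (Cd209a and Zbtb46) above background, and no red cell marker had a probe set of its own. The part of such cells in the GIMAP signals was not tested.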

How the data were processed

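Total RNA from 2 samples of CD8+ T cells was amplified with a whole-transcript kit, biotin-labelled and hybridised to Affymetrix arrays, per the labels' protocols. The authors deposited log2 signals per probe set, for which the submitters' processing notes name RMA and Affymetrix Expression Console; the log2 scale was read from the values, from 0.79 to 12.64 on the bezafibrate array and from 0.75 to 12.68 on the DMSO array. No source used here gives their versions or a genome build. RMA equalises the arrays' distributions, so each ratio is relative to the other genes, and it can shrink true differences at low signal. The measured ratios still spread wider there. Their median size was 0.21 log2 units in the receptor genes taken as silent and 0.14 in genes above the floor. The number of arrays limits the precision.

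Of 41801 probe sets, 8008 were blank; 23521 named 1 gene in the platform annotation, 1814 several and 8458 none. The probe set with the highest mean signal stood for a gene. No probe set naming several genes named a Gimap gene. Because each group had 1 array, no test was run: genes past 1.5-fold were counted. All GIMAP genes were named, with up to 2 highest and 2 lowest genes above the floor of each list, 7 fixed genes and the 2 nearest measured neighbours on each side. Only some of these are given in the text, and a planned comparison of the member proteins was not made. The members and lists were chosen with earlier results of these data known. The fold rule was run on simulated data only with planted differences far above the limit, which it was almost sure to find. That run therefore says little about the choice of limit. How the rule performs for ratios as small as those of the GIMAP genes was not tested. Python 3.11.15, numpy 2.4.6, pandas 2.3.3, statsmodels 0.14.6 and matplotlib 3.10.9 were used. Alternatives were quantile normalization, subtraction of a loess curve (span 0.3) over signal level, a housekeeping gene centre, other choices of probe set, other floors and fold limits, and, added after seeing the data, subtraction of the median ratio in 10 by 10 classes of level and gene length.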

Additional observations from a re-analysis of the deposited data

How the results depend on the processing

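The count of GIMAP genes past 1.5-fold was 0 under each alternative run, also at limits of 0.32 log2 units and of 2-fold, and the family's median log2 ratio stayed between −0.03 and 0.05, with any 1 member left out or the mean taken too. With no replicate arrays there is no spread to judge the shifts by. The largest shift of a member's ratio was 0.12, in Gimap1, which was −0.18 as deposited and −0.06 after subtraction of a trend in signal and gene length. The count of higher members was 4 after quantile normalization. Higher and lower members numbered 5 and 3 after centring on housekeeping genes, and also 5 and 3 after subtraction of a trend in signal and gene length, against 2 and 5 as deposited. The changes of sign were in Gimap4 and Gimap3, and Gimap7 left 0. Over all genes, those past the limit, higher and lower, were 76 and 60, and became 667 and 724 at 0.32 log2 units, 10 and 0 at 2-fold, 285 and 276 with no floor, and 32 and 14 with a floor raised to percentile 75. No paired analysis was possible because each group had 1 array.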
